A study of Mus musculus with 24 samples.

Results

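Fatty acid synthesis was followed through 10 genes: Acly, Me1, Acaca, Fasn, Elovl6, Scd1, Scd2, Srebf1, Mlxipl and Thrsp. They were chosen by name, as every probe that the array design assigns to one of these genes. That gave 22 of the 56605 probes on the array. Of these, 15 probes passed the filter on dim spots, all 10 genes had at least 1 such probe, and they stood among 19937 gene names tested. RNA came from mouse skeletal muscle of 24 samples in 3 groups of 8. STD_Cont is the label for the STD diet with the Cont lineage, HFD_Cont for the HFD diet with the Cont lineage, and HFD_O3 for the HFD diet with the O3 lineage. No group combined STD with O3, so the lineage was compared on the HFD diet only. What STD, HFD and the O3 lineage stand for, the muscle taken, sex, age and time on the diet were not given in the sources used here. Nothing in the labels says more than that the samples are separate, so p-values measure the spread between these samples.

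De novo fatty acid synthesis turns citrate from the mitochondrion into palmitate in the cytosol. Acly cleaves citrate to acetyl-CoA, Acaca carboxylates this to malonyl-CoA, Fasn builds the chain with NADPH that Me1 helps to supply, and Elovl6, Scd1 and Scd2 lengthen and desaturate the product. The transcription factors Srebf1 and Mlxipl, which answer to insulin and sugar, control many of these genes. The pathway is most active in liver and fat and runs at a low rate in muscle, where fat cells between the fibres can also contribute RNA.

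The share of spots well above background was 52.0 to 60.7% per array, and 0 spots were saturated; the number of arrays limits the precision. All 5 muscle-defining markers (Acta1, Ckm, Mb, Des and Ttn) were well above background on 24 of 24 arrays. All 12 white adipocyte markers passed the filter too. The white adipocyte score of an array, the mean centred log2 level of these 12, ran from −1.21 to 1.26 in STD_Cont, from −1.05 to 1.90 in HFD_Cont and from −1.20 to 1.50 in HFD_O3. In limma 0 of the 12 markers passed in HFD_Cont against STD_Cont, HFD_O3 against HFD_Cont or HFD_O3 against STD_Cont. Of all names 3.15, 0 and 0.602% passed, in that order. At an unadjusted p under 0.05 there were 0, 0 and 1 markers, beside 16.8, 7.42 and 11.4% of all names. Changes were below 0 for 3 of the 12 in HFD_Cont against STD_Cont, 11 in HFD_O3 against HFD_Cont and 6 in HFD_O3 against STD_Cont. The share of all names below 0 was 46.8, 55.9 and 53.2%. The median log2 change of the 12 was 0.30, −0.85 and −0.07 in that order. The arrays lay on 3 slides of 8, with every group on each slide but not in every row of arrays. Row 2 of slide 1 and row 1 of slide 2 held no STD_Cont, and row 2 of slide 2 held no HFD_Cont. On slide 2, HFD_Cont and STD_Cont thus shared no row. Row 1 of slide 2 held arrays 4 and 5 of HFD_Cont and of HFD_O3, with white adipocyte scores from 0.92 to 1.90. Over the first 3 principal components HFD_O3 array 1, STD_Cont array 4 and HFD_Cont array 4 lay farthest out, and HFD_O3 array 7 was the highest on the first component. In bulk muscle, fewer cells of a type and less RNA per cell cannot be told apart.

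The 10 genes showed no called change on the HFD diet or with the O3 lineage. In limma's test across all names, with Benjamini-Hochberg adjustment and a threshold of 0.05, 0 of 10 passed in HFD_Cont against STD_Cont, where 3.15% of all names did. At an unadjusted p under 0.05 there were 2 (Acaca and Srebf1, both lower), against 16.8% of all names in either direction and 8.13% lower. In HFD_O3 against HFD_Cont 0 of 10 passed, with 0% of all names past the threshold, and 0 of 10 had an unadjusted p under 0.05, against 7.42% of all names, 4.71% lower. In HFD_O3 against STD_Cont 0 of 10 passed against 0.602% of all names, and 2 (Acaca and Scd2, both lower) had an unadjusted p under 0.05, against 11.4%, 6.01% lower. The median log2 change of the 10 was 0.02, −0.07 and −0.15 in these 3 comparisons, beside 0.01, −0.01 and −0.01 over all names. Changes were below 0 for 4, 8 and 7 of the 10 genes, beside 46.8, 55.9 and 53.2% of all names. Each pair of comparisons shares a group of arrays, so the 3 values for a gene are not separate measurements.

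**Figure D1:**
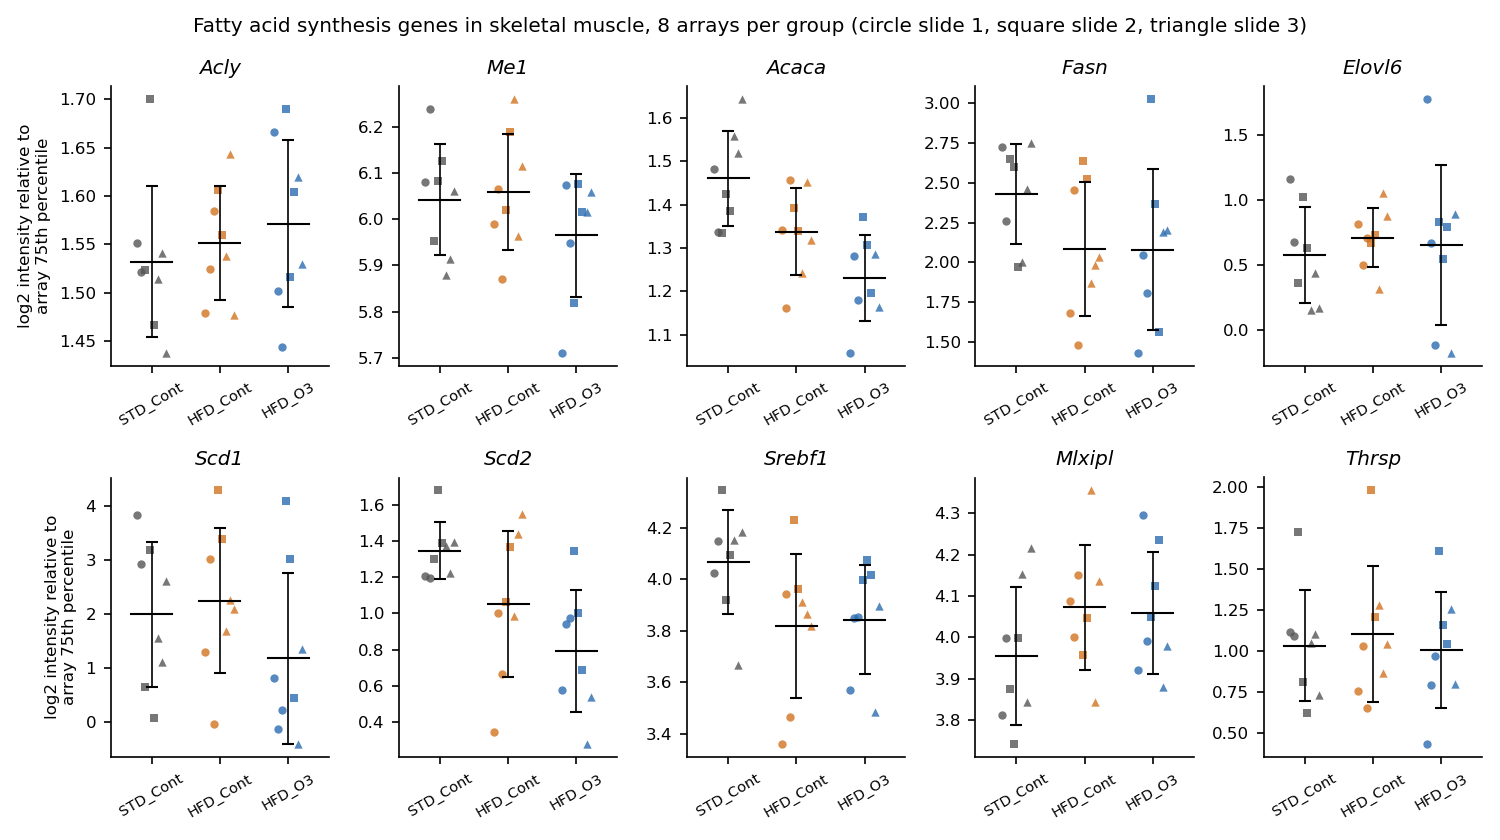
Level of each gene on every array, as log2 intensity relative to the array's 75th percentile (each panel has its own vertical scale), by group; bars give the mean and SD of 8 arrays and symbols the slide. Acaca and Scd2 step down from STD_Cont to HFD_O3 with overlapping groups, and Scd1 spans a 26-fold range.

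Acly, the ATP citrate lyase that supplies acetyl-CoA, was the steadiest of the 10. Its levels (log2 intensity relative to the array's 75th percentile, the scale of every level here) ran from 1.44 to 1.70 with a median of 1.52 in STD_Cont. They ran from 1.48 to 1.64 with a median of 1.55 in HFD_Cont and from 1.44 to 1.69 with a median of 1.57 in HFD_O3. The groups overlapped almost fully, and STD_Cont array 4 was the highest of all 24. The log2 change was 0.02 ± 0.04 (moderated SE) in HFD_Cont and 0.04 ± 0.04 in HFD_O3 against STD_Cont, with adjusted p of 0.889 and 0.816. The SD over 24 arrays was lower than that of all but 2.1% of names. The 95% interval for HFD_Cont, from −0.07 to 0.11 on the log2 scale, leaves room only for small changes.

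Me1, the cytosolic malic enzyme that makes NADPH, was as flat in HFD_Cont. Its levels ran from 5.88 to 6.24 (median 6.07) in STD_Cont, from 5.87 to 6.26 (median 6.04) in HFD_Cont and from 5.71 to 6.08 (median 6.02) in HFD_O3. The lowest level belonged to HFD_O3 array 1, and the other arrays of the 3 groups were mixed. Of 7 genes of slow fibres (such as Myh7 and Tnni1), 0 passed in limma in each comparison, beside 3.15, 0 and 0.602% of all names. Changes were below 0 for 7 of them in HFD_Cont against STD_Cont, 2 in HFD_O3 against HFD_Cont and 7 in HFD_O3 against STD_Cont. The share of all names below 0 was 46.8, 55.9 and 53.2%, and the median change of the 7 was −0.51, 0.27 and −0.25. A slow muscle score was formed from these 7 like the white adipocyte score. Me1 ran against it with r = −0.324 and rho = −0.546 (permutation p = 0.284 and 0.0377, adjusted over 30 relations of a gene with a score), −0.597, −0.15 and −0.502 within slides 1, 2 and 3 and −0.481 without the 2 farthest arrays; the part of fibre type in its level was not tested. The log2 change of HFD_O3 was −0.09 ± 0.07 against HFD_Cont (adjusted p = 0.762) and −0.08 ± 0.07 against STD_Cont (adjusted p = 0.743). A second Me1 probe followed the first over the 24 arrays with r = 0.70 and differed by 0.01 between HFD_O3 and STD_Cont.

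Acaca, acetyl-CoA carboxylase 1, catalyses the committed step and came closest to the threshold. In STD_Cont its levels ran from 1.33 to 1.64 with a median of 1.45, in HFD_Cont from 1.16 to 1.46 with a median of 1.34, and in HFD_O3 from 1.06 to 1.37 with a median of 1.24. All 8 HFD_O3 arrays lay below the STD_Cont median, yet the groups still overlapped, since HFD_O3 array 4 was above the lowest STD_Cont array. Group means were 1.46 ± 0.11, 1.34 ± 0.10 and 1.23 ± 0.10 (SD, n = 8 each) in that order. The log2 change of HFD_O3 against STD_Cont was −0.23 ± 0.06 (1.17-fold lower), with an unadjusted p of 0.000354 and an adjusted p of 0.0552 from limma. HFD_Cont against STD_Cont gave −0.12 ± 0.06 (adjusted p = 0.256) and HFD_O3 against HFD_Cont −0.11 ± 0.06 (adjusted p = 0.684). The smaller steps do not show that either diet or lineage alone was without effect; their 95% intervals ran from −0.24 to −0.01 and from −0.22 to 0.01.

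Whether Acaca, not called in the main fit, passed in HFD_O3 against STD_Cont depended on the setting. Without HFD_O3 array 7 the adjusted p for HFD_O3 against STD_Cont was 0.0349, without HFD_O3 array 4 it was 0.0485, and without HFD_Cont array 2 it was 0.0499. It was 0.0416 on the deposited value table and 0.0483 with slide and array row as blocks. It was 0.0474 both with only probes well above background on all 24 arrays and with trend and robust variance. With median scaling it was 0.298, and with the mean of a gene's kept probes 0.138. On slides 1, 2 and 3 alone the log2 change was −0.24, −0.09 and −0.35, below 0 on each. Acaca correlated over the 24 arrays with a Schwann cell score (the mean centred log2 level of 8 markers, described with Scd2), with r = 0.459 and rho = 0.558 (adjusted permutation p = 0.113 and 0.0377), 0.64, 0.491 and 0.358 within slides 1, 2 and 3 and 0.594 without the 2 farthest arrays. Within STD_Cont, HFD_Cont and HFD_O3 alone r was lower, at 0.236, 0.315 and 0.086. The slope of Acaca on the score within groups was 0.06 ± 0.06 (unadjusted p = 0.329 in limma). With that score as a covariate the change of HFD_O3 against STD_Cont was −0.20 ± 0.06 and the adjusted p 0.234. The part of nerve tissue in the Acaca value was not tested.

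Acaca was the gene with most probes, 7 in all, and these did not measure alike. The 2 that passed the filter lie close together on mm9, at chr11:84215093-84215152 (first probe) and chr11:84214359-84214418 (second probe), both on the + strand. The first 30 bases of the first probe are shown because the Acaca values rest on it, and the whole of a dim probe, at chr11:84211638-84211697 and well above background on 1 of 24 arrays, because it names the same transcript and gave no usable level.
Acaca first probe: gcttcagtccaatgcactcttctcacgttt
Acaca dim probe: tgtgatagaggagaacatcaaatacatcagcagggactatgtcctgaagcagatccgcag
The second probe gave a log2 change of −0.26 ± 0.12 for HFD_O3 against STD_Cont (adjusted p = 0.448) and of −0.01 ± 0.12 for HFD_Cont against STD_Cont. Over the 24 arrays the 2 kept probes correlated with r = 0.37. They share the sign in HFD_O3, while the second probe does not show the smaller difference in HFD_Cont. The other 5 probes were well above background on 0 to 8 arrays and were left out.

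Fasn, the fatty acid synthase, was lower on average in both HFD groups but widely spread. STD_Cont arrays ran from 1.97 to 2.75 with a median of 2.53, HFD_Cont arrays from 1.48 to 2.64 with a median of 2.01, and HFD_O3 arrays from 1.43 to 3.03 with a median of 2.12. HFD_O3 array 4 was the highest of all 24 and HFD_O3 array 1 the lowest, so the groups overlapped widely. The log2 change was −0.34 ± 0.20 in HFD_Cont (adjusted p = 0.417) and −0.35 ± 0.20 in HFD_O3 (adjusted p = 0.553) against STD_Cont. Between the HFD groups it was −0.00 ± 0.20, with a 95% interval from −0.42 to 0.41. On slides 1, 2 and 3 alone the HFD_Cont change was −0.62, 0.18 and −0.44, and with slide and array row as blocks −0.68 ± 0.19 (adjusted p = 0.112).

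Fasn moved with the white adipocyte score over all arrays but not on slide 3. With that score in the model, HFD_Cont against STD_Cont was called and HFD_O3 against STD_Cont was not. Over 24 arrays Pearson's r was 0.685 and Spearman's rho 0.67, with adjusted permutation p of 0.0033 and 0.0048 over 30 relations of a gene with a score. Without the 2 arrays farthest from the median score r was 0.602, and within slides 1, 2 and 3 it was 0.834, 0.694 and −0.053. With the score as a covariate in limma, the change of HFD_Cont against STD_Cont was −0.52 ± 0.12 (adjusted p = 0.0323). In that fit 2.29% of all names passed. HFD_O3 against STD_Cont was then −0.28 ± 0.12 (adjusted p = 0.368). Without the 7 arrays with a score over 0.5 (STD_Cont 1 and 4, HFD_Cont 2, 4 and 5, HFD_O3 4 and 5) the HFD_Cont change was −0.54 ± 0.17, with an adjusted p of 0.333. What part of the Fasn signal comes from fat cells was not tested.

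**Figure D2:**
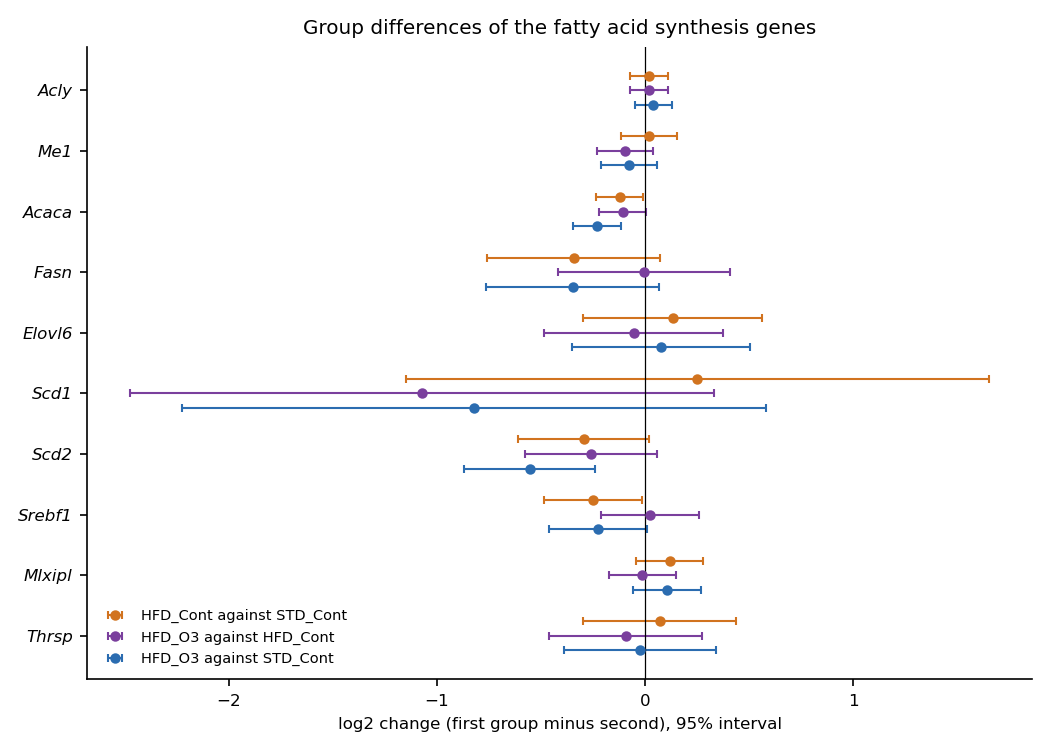
Log2 change of each gene in the 3 comparisons (first group minus second), with its 95% interval from limma before adjustment for the number of names. Scd1 has by far the widest intervals, from −2.47 to 0.33 for HFD_O3 against HFD_Cont, and Acly the narrowest.

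Elovl6, the elongase that adds carbons to palmitate, was most scattered in HFD_O3. Its levels ran from 0.16 to 1.16 (median 0.54) in STD_Cont, from 0.32 to 1.05 (median 0.72) in HFD_Cont and from −0.17 to 1.78 (median 0.73) in HFD_O3. Both extremes came from HFD_O3, array 1 the highest and array 7 the lowest. The log2 change was 0.13 ± 0.21 in HFD_Cont (adjusted p = 0.822) and 0.08 ± 0.21 in HFD_O3 (adjusted p = 0.941) against STD_Cont. Leaving out HFD_O3 array 1 turned the second value to −0.08. Of the 13331 other plain symbols measured on 24 arrays, Shc4, St6galnac1 and Phyhipl followed Elovl6 most closely, with Pearson's r of 0.969, 0.966 and 0.965. These held at 0.954, 0.949 and 0.948 without HFD_O3 array 1, the array whose loss lowered them most.

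Scd1 and Scd2, the stearoyl-CoA desaturases that make monounsaturated fatty acids, are close relatives on chromosome 19 and were read by separate probes. These probes share no run of letters longer than 6 bases, and 13 of 60 bases are the same in register. The first 30 bases of each are given since reading these paralogs apart rests on the letters; they lie on mm9 at chr19:44469387-44469446 on the − strand (Scd1) and chr19:44381024-44381083 on the + strand (Scd2).
Scd1 probe: actcctgggctaagtatctgacagtctcac
Scd2 probe: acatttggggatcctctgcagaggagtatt

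Scd1 was the most variable of the 10, with an SD over 24 arrays higher than that of 99.8% of names. Its levels ran from 0.06 to 3.84 (median 2.09) in STD_Cont, from −0.04 to 4.29 (median 2.17) in HFD_Cont and from −0.41 to 4.09 (median 0.62) in HFD_O3. Every group held arrays near the top and near the bottom of the 26-fold range. The mean of HFD_O3 was 1.17 ± 1.59 and that of HFD_Cont 2.24 ± 1.34 (SD, n = 8), and the log2 change between them, −1.07 ± 0.68, had an adjusted p of 0.744. Against STD_Cont the change was 0.25 ± 0.68 in HFD_Cont (adjusted p = 0.912) and −0.82 ± 0.68 in HFD_O3 (adjusted p = 0.736). With 95% intervals from −1.15 to 1.65 and from −2.22 to 0.58, changes of more than a doubling either way fit the first, and a fall of that size the second.

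The level of Scd1 followed the white adipocyte score closely. Pearson's r was 0.964 and rho 0.96 over 24 arrays, with adjusted permutation p of 0.0003 for both over 30 relations. The unadjusted permutation p of both, 1e-05, is the smallest that 100000 resamples can give. Within slides 1, 2 and 3 r was 0.987, 0.988 and 0.782, and without the 2 farthest arrays it was 0.955. In limma, Scd1 rose by 1.54 ± 0.07 log2 units per unit of the score within groups (adjusted p = 5.02e-13), a slope past the threshold for 1.03% of all names. The names most like Scd1 were Rbp4 (r = 0.971), Cdo1 (0.969) and the adipokine gene Retn (0.966), the last of them one of the 12 score markers. With the score as a covariate the 3 changes were −0.48 ± 0.15, −0.06 ± 0.16 and −0.54 ± 0.15, none past the threshold (lowest adjusted p 0.106). The group difference also turned with the slide: HFD_Cont minus STD_Cont was −1.96, 2.54 and 0.24 on slides 1, 2 and 3. The part of fat cells in the Scd1 signal was not tested.

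**Figure D3:**
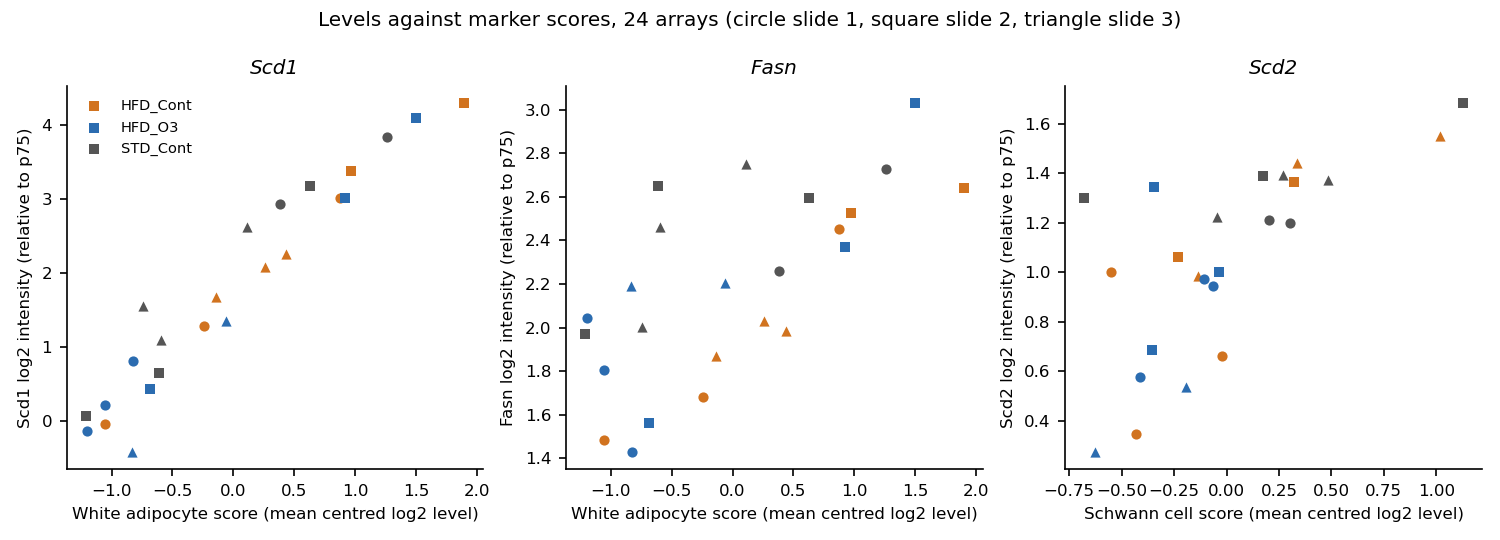
Level of Scd1 and Fasn against the white adipocyte score, and of Scd2 against the Schwann cell score, 1 point per array, coloured by group and shaped by slide. Scd1 lies close to 1 line over all groups (r = 0.964), Fasn scatters more (r = 0.685), and Scd2 follows the Schwann cell score with r = 0.699.

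Scd2 was lower in HFD_O3 than in STD_Cont without passing the test. Its levels ran from 1.20 to 1.68 (median 1.34) in STD_Cont, from 0.35 to 1.55 (median 1.03) in HFD_Cont and from 0.28 to 1.34 (median 0.81) in HFD_O3. STD_Cont arrays sat in a narrow band, and of the HFD_O3 arrays only array 4 reached into it. The log2 change of HFD_O3 against STD_Cont was −0.55 ± 0.15 (1.47-fold lower), with an unadjusted p of 0.00139 and an adjusted p of 0.102. HFD_Cont against STD_Cont gave −0.29 ± 0.15 (adjusted p = 0.342) and HFD_O3 against HFD_Cont −0.26 ± 0.15 (adjusted p = 0.73). With slide and array row as blocks the HFD_O3 change against STD_Cont was −0.72 ± 0.15, with an adjusted p of 0.0448. On slides 1, 2 and 3 alone it was −0.37, −0.45 and −0.92.

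Markers of myelinating Schwann cells moved with Scd2. All 8 of the markers used passed the filter, and their score, formed like the white adipocyte score, ran from −0.68 to 1.13 in STD_Cont, from −0.55 to 1.02 in HFD_Cont and from −0.63 to −0.04 in HFD_O3. In HFD_O3 against STD_Cont 0 of these 8 markers passed the test, beside 0.602% of all names. At an unadjusted p under 0.05, 5 were lower, beside 6.01% of all names. Scd2 correlated with this score with r = 0.699 and rho = 0.711 (adjusted permutation p = 0.0021 and 0.003), with 0.644, 0.621 and 0.875 within slides 1, 2 and 3 and 0.607 without the 2 farthest arrays. The slope within groups, 0.45 ± 0.13, had an adjusted p of 0.338 in limma, where the slope passed for 0.306% of all names. With the Schwann cell score as a covariate the HFD_O3 change of Scd2 against STD_Cont was −0.33 ± 0.14 (adjusted p = 0.482), and with the white adipocyte score −0.53 ± 0.14 (adjusted p = 0.0964). The part of nerve tissue in the Scd2 signal was not tested.

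Srebf1, which encodes the SREBP1 factors that drive lipogenic genes, was lower in both HFD groups at a size that missed the threshold. STD_Cont arrays ran from 3.67 to 4.35 (median 4.12), HFD_Cont arrays from 3.36 to 4.23 (median 3.89) and HFD_O3 arrays from 3.48 to 4.08 (median 3.87). All 8 HFD_O3 arrays and 7 of 8 HFD_Cont arrays lay below the STD_Cont median, but STD_Cont array 7 was among the low arrays. The log2 change was −0.25 ± 0.11 in HFD_Cont (unadjusted p = 0.0396, adjusted p = 0.266) and −0.22 ± 0.11 in HFD_O3 (adjusted p = 0.477) against STD_Cont. Between the HFD groups it was 0.02 ± 0.11. On slides 1, 2 and 3 alone the change against STD_Cont was −0.50, −0.02 and −0.14 in HFD_Cont. In HFD_O3 it was −0.33, −0.09 and −0.31. Srebf1 was read by 1 probe, at chr11:60013214-60013273 on the − strand of mm9.

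Mlxipl encodes ChREBP, the factor that answers to glucose. Levels of its main probe ran from 3.74 to 4.22 (median 3.94) in STD_Cont, from 3.84 to 4.36 (median 4.07) in HFD_Cont and from 3.88 to 4.29 (median 4.02) in HFD_O3. Groups overlapped, with 7 of 8 HFD_Cont arrays above the STD_Cont median. The log2 change was 0.12 ± 0.08 in HFD_Cont (adjusted p = 0.492) and 0.10 ± 0.08 in HFD_O3 (adjusted p = 0.688) against STD_Cont.

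The 3 kept Mlxipl probes did not track each other, with r of −0.36, 0.36 and 0.27 over the 24 arrays. Probe 2 gave −0.05 ± 0.08 and probe 3 gave 0.24 ± 0.08 for HFD_Cont against STD_Cont, the latter with all 8 arrays above the STD_Cont median and an adjusted p of 0.105 over all probes. Probe 3 gave 0.24 ± 0.08 for HFD_O3 too (adjusted p = 0.182). The last 30 bases of these probes are shown because part of each, as written or as its reverse complement, occurs in probes of other names. Capitals mark the letters within a run of at least 16 bases shared in either way. Matches on the same and on the opposite strand were not counted apart.
Mlxipl probe 2: aTGCACACCTTTAATCCCAGTACTTGggag
Mlxipl probe 3: tACTACACAGAGAAACCCTGTCTCAAAAAA
Probe 3 shares such a run with probes of 21 other names and probe 2 with 6, while none of the other kept probes of the 10 genes shares one. Of all probes on the array 19.4% do. Whether RNA from those other genes adds to the 2 signals was not tested, and the main Mlxipl probe shares no such run.

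Thrsp, also called Spot 14, is a small lipogenic protein that responds to thyroid hormone and carbohydrate. Its levels ran from 0.62 to 1.73 (median 1.07) in STD_Cont, from 0.65 to 1.98 (median 1.04) in HFD_Cont and from 0.43 to 1.61 (median 1.01) in HFD_O3. A single array stood high in each Cont group, array 3 in STD_Cont and array 4 in HFD_Cont, and the group medians lay close together. The log2 change was 0.07 ± 0.18, −0.09 ± 0.18 and −0.02 ± 0.18 in the 3 comparisons, with adjusted p of 0.905, 0.924 and 0.981. Its 2 probes correlated with r = 0.98 and so reported the same array-to-array differences. Against the white adipocyte score r was 0.529 (adjusted permutation p = 0.0528), and 0.243 without the 2 farthest arrays.

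**Figure D4:**
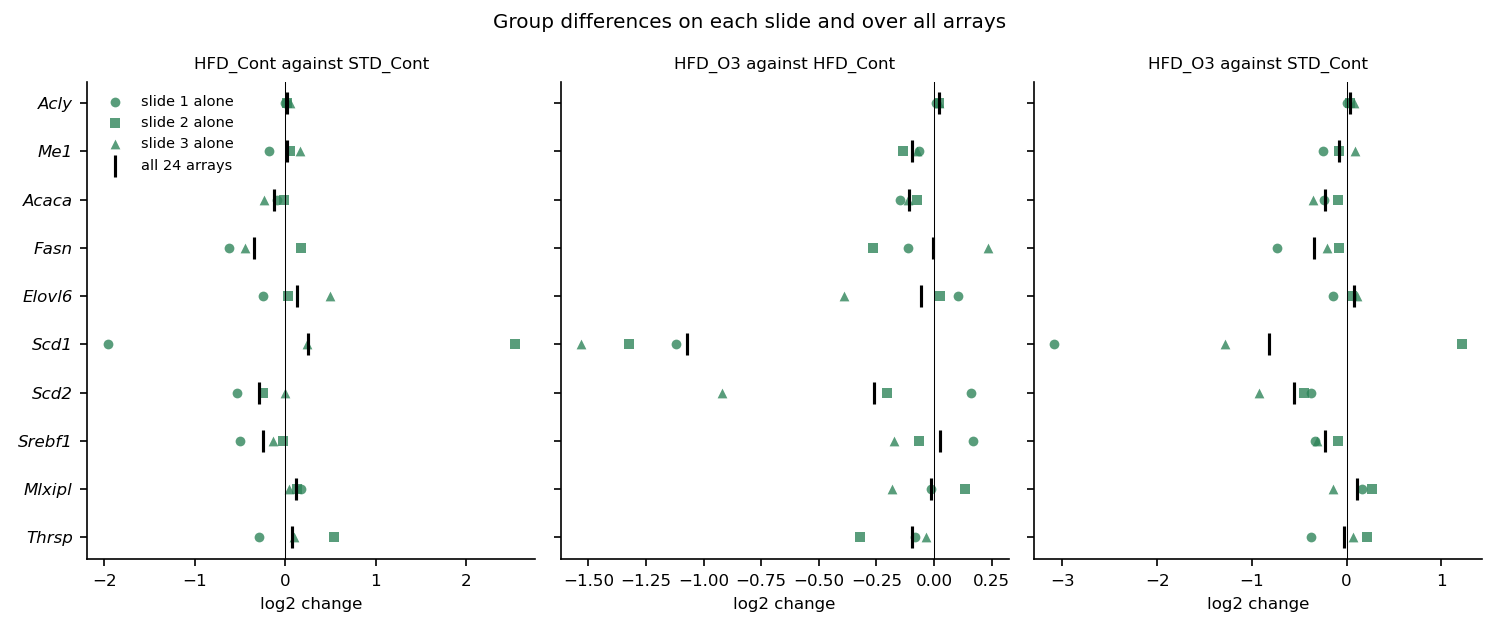
Log2 change of each gene on slide 1, 2 or 3 alone (green symbols) and over all 24 arrays (black ticks), with a separate horizontal scale for each comparison. Acaca lies below 0 on every slide in all 3 comparisons, and Scd1 crosses 0 between slides in both comparisons with STD_Cont.

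From array to array the 10 genes varied together only in part. Of their 45 pairs 29 correlated above 0, with a median r of 0.17 and a range from −0.415 to 0.692. The pair Fasn and Scd1 had r = 0.692 and rho = 0.654 (adjusted permutation p = 0.0103 and 0.0351 over 45 pairs), with 0.648 without the 2 farthest arrays and 0.82, 0.727 and 0.106 within slides 1, 2 and 3. Fasn with Thrsp (r = 0.584, adjusted p = 0.0319) and Scd2 with Srebf1 (r = 0.616, adjusted p = 0.0319) passed by Pearson's r but not by rho (adjusted permutation p = 0.11 and 0.118). Without the 2 farthest arrays these were 0.436 and 0.403, and within slides they ran from −0.487 to 0.869 and from −0.22 to 0.969.

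Windows around the start site in RefSeq's promoter table (GRCm38.p6) were found for 8 of the 10 genes, in 12 windows; none was used for Scd1 and Scd2. The 4 motifs searched on both strands were the SREBP element TCACNCCAC, the E-box CACGTG, the NF-Y box CCAAT and the GC box GGGCGG. NF-Y boxes stood in 7 of the 12 windows (of Acly, Fasn, Me1, Mlxipl, Srebf1 and Thrsp), beside 37.4% of all 32851 windows, and GC boxes in 5 of the 12, beside 35.7%. The SREBP element and the E-box were each found in 1 of the 12 windows, of Mlxipl, beside 1.2% and 7.2% of all windows. The 250 bases before the start of Fasn (chr11:120824548-120824797) and Thrsp (chr7:97417551-97417800), both on the − strand, are shown. Levels of this pair correlated over the arrays by Pearson's r but did not pass by rho, and shared control was not tested. Capitals mark CCAAT or its reverse complement ATTGG, which overlap in the Fasn sequence.
Fasn: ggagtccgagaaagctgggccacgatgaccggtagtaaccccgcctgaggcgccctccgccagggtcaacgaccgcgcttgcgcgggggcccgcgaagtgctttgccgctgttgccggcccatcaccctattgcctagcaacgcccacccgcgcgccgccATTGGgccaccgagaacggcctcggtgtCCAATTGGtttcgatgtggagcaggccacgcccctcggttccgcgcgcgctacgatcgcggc
Thrsp: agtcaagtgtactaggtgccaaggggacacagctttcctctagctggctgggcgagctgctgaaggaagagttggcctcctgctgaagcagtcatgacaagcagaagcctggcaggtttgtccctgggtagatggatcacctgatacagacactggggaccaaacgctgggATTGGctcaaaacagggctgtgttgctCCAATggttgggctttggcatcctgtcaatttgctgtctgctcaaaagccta
Matches are a description of the letters in these windows and say nothing of binding.

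Around the 10 genes, 45 of 48 other genes of the pathway were measured (not Elovl3, Scd5 and Pklr): carbon and NADPH supply, chain building, elongation, desaturation, SREBP and other transcriptional control, and use of the product in glycerolipids. In HFD_Cont against STD_Cont 0 rose and 1 fell, beside 1.67 and 1.48% of all names, with a median change of 0.02. The gene that fell was Mid1ip1, whose product binds and activates acetyl-CoA carboxylase and pairs with Thrsp. Its levels ran from 2.85 to 3.40 (median 2.90) in STD_Cont, from 2.26 to 2.88 (median 2.64) in HFD_Cont and from 2.42 to 2.98 (median 2.59) in HFD_O3. All 8 HFD_Cont arrays lay below the STD_Cont median, with a slight overlap. Its level fell by 0.40 ± 0.10 on the log2 scale (adjusted p = 0.0245).

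The Mid1ip1 call was lost in 4 of the 24 fits that leave out 1 array. These were the fits without STD_Cont array 1 (adjusted p = 0.0582), 3 or 4 (0.0507 each) and without HFD_Cont array 5 (0.0523). It held in 15 of 21 other settings and was lost with no filter on dim probes (0.0681), on slides 1, 2 and 3 alone (0.692, 0.347 and 0.686), with slide and array row as blocks (0.167) and without the 7 arrays with a white adipocyte score over 0.5 (0.305). In HFD_O3 against STD_Cont the change was −0.37 ± 0.10 (adjusted p = 0.0746, and 0.0244 without HFD_O3 array 7).

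Next in HFD_Cont against STD_Cont came Lpin1, the phosphatidate phosphatase of triglyceride synthesis, at −0.52 ± 0.15 (adjusted p = 0.0561). All 8 HFD_Cont arrays were below the STD_Cont median, and the adjusted p ran from 0.0124 to 0.126 with 1 array left out, under 0.05 in 4 of 24 such fits and in 8 of 21 other settings. Elovl1, an elongase of very long chains, gave 0.19 ± 0.06 (adjusted p = 0.0849) and Gpam, the first acyltransferase of glycerolipid synthesis, 0.26 ± 0.08 (adjusted p = 0.0898), each with all 8 HFD_Cont arrays above that median.

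In HFD_O3 against HFD_Cont 0 of 45 passed in limma and 3 were lower at an unadjusted p under 0.05, beside 4.71% of all names, with a median of −0.04. The smallest unadjusted p values were those of Elovl1 (−0.16 ± 0.06, adjusted p = 0.604), Gpam (−0.21 ± 0.08, 0.622), Thra (−0.17 ± 0.07, 0.631) and Hsd17b12 (−0.21 ± 0.10, 0.672). For Elovl1 and Gpam all 8 HFD_O3 arrays lay below the HFD_Cont median, and since HFD_Cont enters both comparisons, the opposite signs are not separate evidence. In HFD_O3 against STD_Cont 0 of 45 passed, beside 0.421% of all names higher and 0.181% lower, and 2 were lower at an unadjusted p under 0.05, beside 6.01%, with a median of −0.03. After Mid1ip1 came Mcat at −0.15, Mbtps2 at −0.10 and Thrb at 0.10, with adjusted p of 0.434, 0.516 and 0.553.

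**Figure D5:**
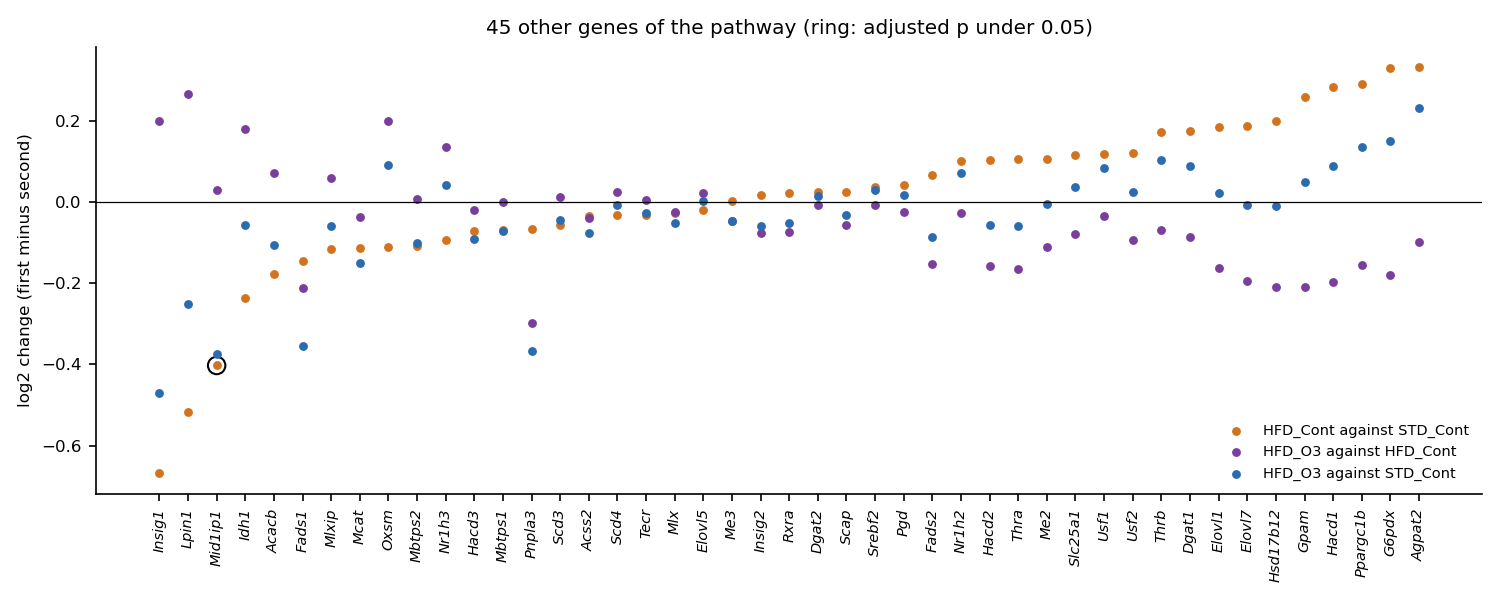
Log2 change (first group minus second) of the 45 other measured genes of the pathway in the 3 comparisons, ordered by HFD_Cont minus STD_Cont; a ring marks an adjusted p under 0.05. Mid1ip1 in HFD_Cont against STD_Cont carries the single ring.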

How the data were processed

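Each array was labelled with Cy3 (1 colour). Per the submitters' processing notes, the software was Agilent Feature Extraction 10.10.1.1 and limma. The deposited scanner files give spot intensity, background-subtracted and detrended by that software, and probe positions on mm9. The authors' deposited value table is in log2 units; it holds 30124 probes, and over the 30030 of them without a missing value it followed the log2 median spot signal (lowest correlation 0.9996); each of its 24 columns correlated best with the array it belongs to.

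Here the log2 processed intensity was scaled by each array's 75th percentile (231.1 to 425.5). A probe was kept if 6 or more of the 8 arrays of any group had it well above background (29245 probes), and each of 19937 names was represented by its brightest probe on average. Group means were fitted over all 24 arrays without a block (R 4.3.3, limma 3.58.1, functions lmFit and eBayes) and compared two-sided, adjusted over all names, at 0.05. Changes carry the moderated standard error and levels their SD; 95% intervals are not adjusted. Scores were related to levels with 100000 permutations. Symbols came from RefSeq for 32994 probes and from the array design otherwise.

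The members and lists were chosen with earlier results of these data known; part of the Schwann cell list was dropped and is not reported here. Named were all 10 genes; of the other pathway genes, those past the threshold and the 4 smallest p in each comparison; and the 3 names most like a gene, of which a selection is given. Same-numbered samples were not treated as pairs. With group means removed, 6 of 24 same-numbered pairs correlated over 0.1, in a range from −0.145 to 0.365. In 4 of the 24 the own number was the best match. These values do not settle whether samples were paired. On simulated data, changes of log2 0.5 and 1 were recovered for 64 and 91% of genes in HFD_Cont against STD_Cont, and of the 19881 names simulated 15 unchanged ones were called. The simulation drew independent normal values with each name's own SD and raised names chosen at random. It held no slide or row differences and no correlation between names. The shares recovered are thus not those of the more variable of the 10 genes, such as Scd1.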

Additional observations from a re-analysis of the deposited data

Results flagged for a closer look

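In 4 of the 30 groups of 8 arrays (10 genes in 3 groups), 1 array stood apart from the other 7 by Dixon's test, where about 1 in 20 groups would by chance. The 10 genes were read on the same arrays, so the 30 groups are not separate trials. STD_Cont array 4 was the highest for Acly, at 1.70 against 1.55 for the next array, a gap of 0.568 of the group's range. The same array was the highest for Scd2, at 1.68 against 1.39 (0.597 of the range), and it also had the highest Schwann cell score of its group, 1.13. For Thrsp, STD_Cont array 3 stood at 1.73 against 1.12 (0.551 of the range) and HFD_Cont array 4 at 1.98 against 1.28 (0.529 of the range). HFD_Cont array 4 also had the highest white adipocyte score, 1.90, and the lowest slow muscle score, −3.92. The part of these in the Thrsp and Scd2 values was not tested.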

How the results depend on the processing

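The alternatives were 21 other settings and the 24 fits that each leave out 1 array. Of the 10 genes, 1 (Fasn) passed in HFD_Cont against STD_Cont with the white adipocyte score in the model, where 2.29% of all names did. None passed in that comparison under any other setting. In HFD_O3 against HFD_Cont none passed under any, beside 0% of all names. In HFD_O3 against STD_Cont 1 (Acaca) passed with the deposited table, with the filter on all 24 arrays and with trend and robust variance. Of all names 0.6, 0.773 and 0.652% did. With slide and array row as blocks 2 passed (Acaca and Scd2), beside 0.276% of all names. With 1 array left out 0 to 1 passed, beside 0.341 to 1.65%. Of the other pathway genes in HFD_Cont against STD_Cont, in place of 1, 2 passed with normexp, the deposited table, the filter on all 24 arrays, only the 2 groups, or trend and robust variance, 3 with array weights, with the Schwann cell score or without HFD_O3 arrays 1 and 7, and 0 with no filter, on each slide alone, with slide and array row, or without the 7 adipocyte-rich arrays (a white adipocyte score over 0.5). The share of all names past the threshold was 3.59, 3.09, 3.76, 5.93 and 3.51% in the settings with 2, in that order. It was 5.96, 2.95 and 6.05% in those with 3, and at most 0.401% in those with 0. With 1 array left out 0 to 3 of these pathway genes passed, beside 1.15 to 4.99% of all names. In HFD_O3 against STD_Cont it was 0 to 1, beside 0.341 to 1.65%. With the replicate block, Acaca had −0.23 with an adjusted p of 0.0889 and no call changed. An uncalled change whose sign turned counted as reversed only where an unadjusted 95% interval left out 0. This held for Scd1 in HFD_Cont against STD_Cont, at −1.96 on slide 1 and −0.48 with the white adipocyte score; the cause was not tested. Signs turned in 50 of 630 values of the 10 genes besides the leave-one-out fits. Over all names, 628 passed in HFD_Cont against STD_Cont, but 203 with median scaling, 149 with no filter, 80 with slide and array row, 1182 with only the 2 groups, 1188 with array weights, 1206 without HFD_O3 arrays 1 and 7, and 0 on each slide alone or without the 7 adipocyte-rich arrays. It was 994 without HFD_O3 array 7, and 230 to 412 without STD_Cont array 1 (230), 3, 4 or 7 or HFD_Cont array 1, 2, 4, 5 or 6. The 120 in HFD_O3 against STD_Cont became 63 with median scaling, 48 with no filter, 55 with slide and array row, 42 with only the 2 groups, 24 with the Schwann cell score, and 0 on each slide alone or without the 7 arrays. It was 329 and 223 without HFD_O3 array 7 or 8, and 68 to 77 without HFD_O3 array 1, 4 or 6 (68) or STD_Cont array 1 or 2. The removal of the 7 arrays, of HFD_O3 arrays 1 and 7 and the Schwann cell covariate were chosen after seeing the data.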
